A study of Mus musculus with 24 samples.

Results

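The microRNA precursors of BV2 cells, an immortalised line of mouse microglia, were compared between cultures given lipopolysaccharide (LPS) and cultures given interleukin-10 (IL-10). LPS was used at 100 ng/mL and IL-10 at 50 ng/mL, each for 72 h, and the labels name no other agent and no altered allele. The comparison rests on 6 of the 24 libraries of the series, 3 for each treatment, joined by precursor name. Untreated controls and cells given TGF-β at 50 ng/mL, with 3 libraries each, entered the same fit but not the contrast. They helped to estimate the spread between libraries, to scale the counts and to decide which precursors had enough counts to test. The controls also serve as a reference level. BV2 is 1 cell line, and nothing in the labels ties the 3 libraries of a treatment to separate cultures. The spread that the p-values are based on is that between these samples and may be technical.

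LPS is a bacterial cell wall component that Toll-like receptor 4 recognises, and the receptor activates NF-kB, which drives inflammatory genes together with the microRNAs mir-155 and mir-146a. IL-10 is a cytokine that signals through STAT3 and dampens the inflammatory programme of macrophages and microglia. A microRNA pairs with target transcripts mainly through its seed, the bases 2 to 8 of the mature strand, and lowers their stability and translation.

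The tables give counts per precursor and do not separate the 2 mature arms of a hairpin. RefSeq (GRCm38.p6) gave a mature sequence for 184 of the 259 tested precursors. The sequences below are those of the precursors with the clearest differences and of relatives that share or nearly share their seed, with the seed in capitals. The mir-146 pair and the mir-221 and mir-222 pair each share a seed, and all were higher after LPS.
miR-146a-5p: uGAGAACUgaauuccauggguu
miR-146b-5p: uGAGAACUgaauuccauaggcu
miR-155-5p: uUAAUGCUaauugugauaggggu
miR-222-3p: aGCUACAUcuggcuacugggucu
miR-221-3p: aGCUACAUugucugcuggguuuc
miR-7a-5p: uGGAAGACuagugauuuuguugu

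The next set is shown because 1 seed joins precursors of several clusters. Of its 5 tested precursors 4 were higher after LPS, against 20.5% over all tested precursors, and mir-25 was not called.
miR-92a-3p: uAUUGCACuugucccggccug
miR-92b-3p: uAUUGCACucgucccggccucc
miR-32-5p: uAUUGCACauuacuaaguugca
miR-25-3p: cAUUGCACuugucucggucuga

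The last set was lower after LPS than after IL-10, apart from miR-1961, which has the let-7 seed and was higher, and from miR-16, which has the seed of miR-322 and was not called.
miR-511-3p: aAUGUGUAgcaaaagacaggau
miR-322-5p: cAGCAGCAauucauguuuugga
miR-16-5p: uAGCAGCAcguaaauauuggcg
miR-503-5p: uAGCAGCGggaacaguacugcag
miR-351-5p: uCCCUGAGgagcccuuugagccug
miR-210-3p: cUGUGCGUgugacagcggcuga
let-7a-5p: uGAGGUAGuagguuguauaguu
miR-1961: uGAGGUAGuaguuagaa

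The 3 LPS libraries held 185400 to 233757 counts and the 3 IL-10 libraries 340140 to 352120. Of 1187 listed precursors 604 had at least 1 count in these 6 libraries, and 402 to 408 were detected per LPS library and 406 to 420 per IL-10 library. Where a precursor had no count, its share could still reach 0.00162% in the shallowest LPS library and 0.000882% in the shallowest IL-10 library (3 counts of the total), limits that cover counting error only. Replicates differed by more than counting noise, with a chi-square of 7.51 to 8.47 per degree of freedom among LPS and of 12.0 to 15.2 among IL-10 libraries. Levels below are normalised CPM, in which each count is scaled to a common total by the library size and its TMM factor, and a call is an edgeR adjusted p under 0.05 over the 259 precursors with enough counts to test.

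LPS and IL-10 left the cells with clearly different precursor levels. Of 259 tested precursors 115 were called (44.4%), 53 higher after LPS (20.5%) and 62 lower after LPS than after IL-10 (23.9%). The 6 libraries separated by treatment without overlap for 132 precursors (51.0%), of which 112 were called, and mir-331, mir-467a-5 and mir-467a-6 were called although their libraries overlapped. Of the calls, 29 were higher and 12 lower by at least 1 on the log2 scale, and the median over all tested precursors was 0.00. The 29 include mir-1961, mir-6538, mir-7033 and mir-155, which were tested because of their level after LPS. The 12 include mir-450b, tested because of its level in IL-10 and control libraries. A difference was thus built into part of both counts, and numbered copies count separately in both. With library totals in place of TMM factors the split was 35 higher and 70 lower, since that scaling moved the median to -0.20. Without LPS library 1 or without LPS library 3 the lower precursors numbered 34, and without IL-10 library 2 they numbered 41. In bulk RNA fewer cells of a type and less RNA per cell cannot be told apart. Numbered copies of 1 microRNA may share reads. Joined by name, 46 of 204 names had a higher call and 46 a lower one.

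**Figure D1:**
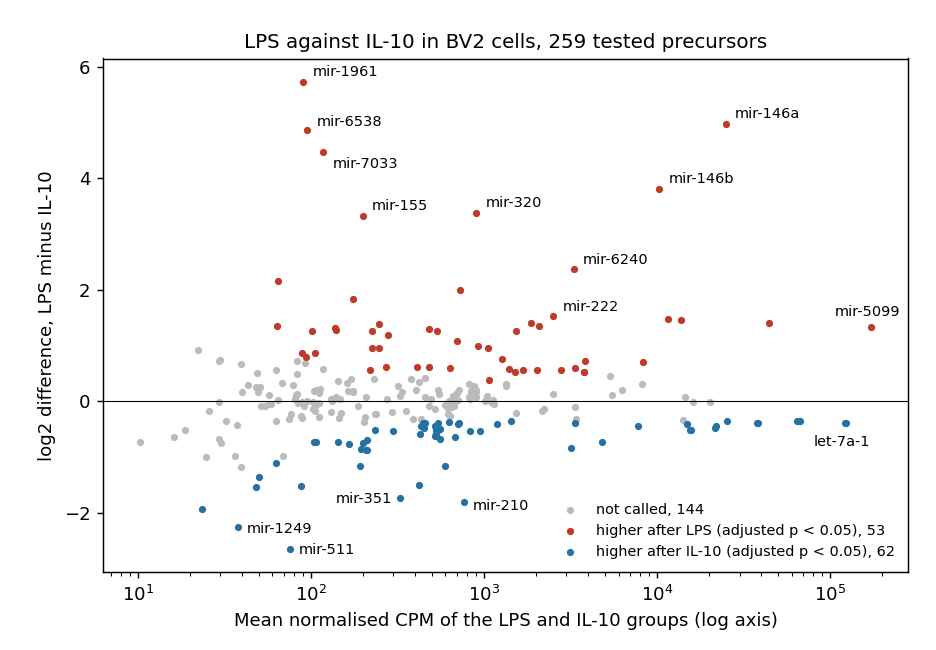
Log2 difference between LPS and IL-10 cells (y axis, above 0 means higher after LPS) against the mean normalised CPM of both groups (x axis, log scale) for 259 precursors, each point 1 precursor. mir-146a at 4.98 and mir-146b at 3.82 combine a large difference with a high level, and most of the 62 lower precursors lie between 0 and -1.

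Precursors that Toll-like receptor 4 signalling induces by way of NF-kB were among those furthest apart between the treatments. mir-146a, whose product represses the adaptor proteins Irak1 and Traf6 and so restrains the pathway that induces it, stood at 52897, 44879 and 47383 normalised CPM in the LPS libraries and at 1478, 1384 and 1736 in the IL-10 libraries. Every LPS library was far above every IL-10 library. The difference was 31.5-fold (log2 4.98 ± 0.17 SE, edgeR adjusted p = 1.58e-16). mir-146a took 4.15 ± 0.309% of all counts after LPS and 0.152 ± 0.0294% after IL-10 (SD, n = 3 each), which placed it among the 10 most abundant precursors of the 6 libraries.

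mir-146b, which has the same seed and lies on another chromosome, stood at 20958, 17699 and 19110 normalised CPM after LPS and at 1240, 1338 and 1520 after IL-10. The treatments again lay far apart, by 14.1-fold (log2 3.82 ± 0.16, edgeR adjusted p = 6.42e-15). mir-155, which comes from the Bic transcript of activated macrophages and represses the inhibitors Socs1 and Ship1, was a much less frequent precursor. Its levels were 404, 381 and 310 normalised CPM after LPS and 27.4, 29.9 and 49.4 after IL-10. The lowest LPS library was several times the highest IL-10 library, and the difference was 10.1-fold (log2 3.33 ± 0.28, edgeR adjusted p = 2.22e-09).

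mir-132, a CREB-induced precursor that targets acetylcholinesterase, stood at 40.9, 25.4 and 43.6 normalised CPM after LPS and at 13.7, 20.0 and 32.9 after IL-10. These ranges overlapped, and its log2 difference of 0.73 had a 95% interval from -0.41 to 1.86 (edgeR adjusted p = 0.335). Of 10 listed precursors of this pathway 5 could be tested and 3 were higher, against 20.5% higher over all tested precursors. The median log2 difference was 3.33, and mir-132 and mir-21a were not called. mir-155 is 1 of the 3 and sets that median, and it had enough counts to be tested because of its level after LPS. A difference was thus built into its place in this count. The 3 mir-9 copies had no count in the 6 libraries, and mir-147 and mir-212 had too few to test.

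Both treatments were also set against the untreated controls, in 2 comparisons that share those controls. Of the 259 precursors 32.0% were called for LPS against control and 7.72% for IL-10 against control. mir-146a stood at 864, 1016 and 1046 normalised CPM in controls, which made it higher by a log2 of 5.63 after LPS and of 0.65 after IL-10 (edgeR adjusted p = 2.29e-17 and 0.0128). For mir-146b the values were 4.49 and 0.68, both called, and for mir-155 they were 4.06, called, and 0.73, not called. The LPS cells were thus also above untreated cells for all 3, and the IL-10 cells lay nearer to the control level.

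**Figure D2:**
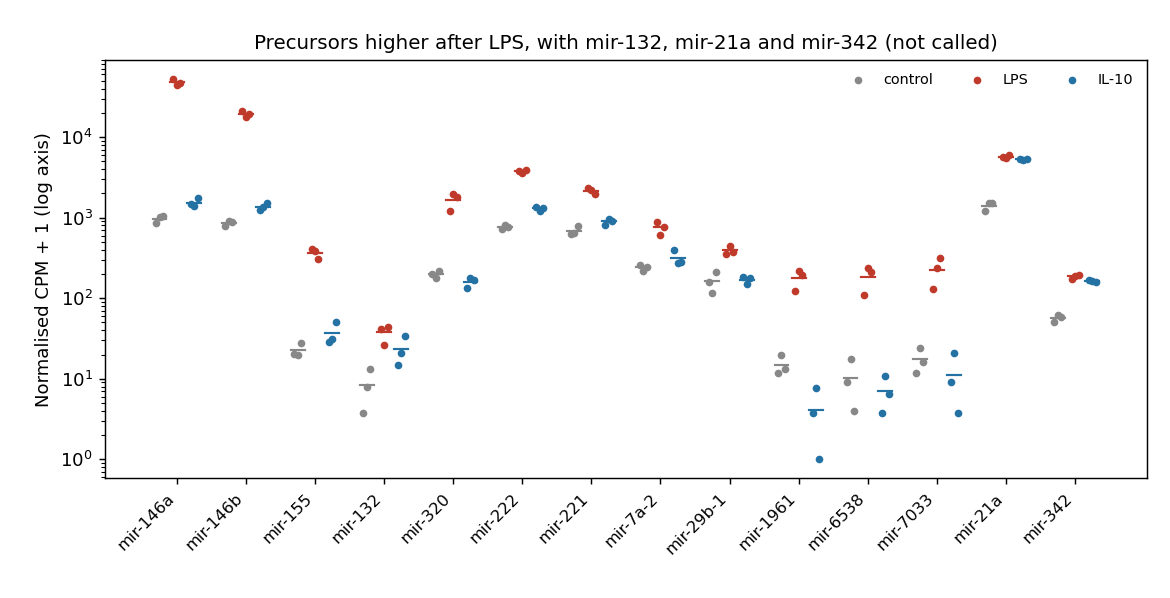
Normalised CPM plus 1 (y axis, log scale) of 14 precursors in each control, LPS and IL-10 cell library, with a bar at the group mean. The LPS points of mir-146a, mir-146b, mir-155 and mir-320 lie above all IL-10 points, while those of mir-21a and mir-342 lie close to the IL-10 points and above the controls.

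mir-21a, which is induced through STAT3 as well as NF-kB and represses the translation inhibitor Pdcd4, was nearly level between the treatments. It stood at 5726, 5553 and 5945 normalised CPM after LPS and at 5273, 5247 and 5347 after IL-10, against 1207, 1508 and 1530 in controls. The LPS libraries lay just above the IL-10 libraries without overlap, and both lay far above the controls. The log2 difference between the treatments was 0.12, with a 95% interval from -0.16 to 0.40 (edgeR adjusted p = 0.553), and it was -0.08 with library totals. Against control it was 2.02 for LPS and 1.90 for IL-10, both called.

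mir-342, from an intron of the Evl gene and frequent in myeloid cells, had a like pattern at a lower level. The LPS libraries held 174, 190 and 196 normalised CPM, the IL-10 libraries 170, 163 and 159, and the controls 49.4, 60.9 and 57.4. Its treated libraries all lay above the controls and differed little from each other, by a log2 of 0.19 (95% interval -0.24 to 0.61, edgeR adjusted p = 0.545). These intervals do not exclude a difference of up to 0.40 for mir-21a and 0.61 for mir-342 on the log2 scale. Of the listed precursors induced by IL-10 or STAT3, mir-21a and mir-146b could be tested and mir-187 had no count in the 6 libraries. Of 3 tested precursors reported to target the Il10 transcript itself, mir-106a was higher after LPS (log2 0.61), mir-27a lower (-0.40) and mir-98 not called (-0.17). With library totals mir-106a was not called (0.40) and mir-98 was called lower (-0.36, edgeR adjusted p = 0.0259). mir-106a lost its call without LPS library 1 or 2 or IL-10 library 2 or 3, and mir-27a lost its own without LPS library 1 or 3 or IL-10 library 1 or 3.

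mir-222 and mir-221, neighbours on chromosome X in RefSeq GRCm38.p6 whose products repress the cell cycle inhibitor p27, were higher after LPS. mir-222 stood at 3766, 3579 and 3882 normalised CPM after LPS and at 1360, 1214 and 1325 after IL-10. All LPS libraries were above all IL-10 libraries, by 2.88-fold (log2 1.52 ± 0.13, edgeR adjusted p = 2.22e-09). mir-221 stood at 2349, 2202 and 1965 after LPS and at 821, 968 and 916 after IL-10, a 2.41-fold difference (log2 1.27 ± 0.13, edgeR adjusted p = 5.98e-08). Against control mir-222 was called after both treatments (log2 2.29 and 0.76), and mir-221 after LPS (1.66) but not after IL-10 (0.39, edgeR adjusted p = 0.0694).

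mir-320, a precursor made without the nuclear enzyme Drosha, was among the furthest apart. It stood at 1197, 1974 and 1786 normalised CPM after LPS and at 131, 176 and 167 after IL-10, with 200, 176 and 215 in controls. The IL-10 libraries lay at or just below the controls and the LPS libraries far above both. The difference between the treatments was 10.4-fold (log2 3.38 ± 0.19, edgeR adjusted p = 1.12e-12).

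The 3 miR-7 precursors were all higher after LPS, where 20.5% of all tested precursors were. mir-7a-2 stood at 890, 616 and 773 normalised CPM after LPS and at 397, 270 and 280 after IL-10, a log2 difference of 1.27 ± 0.18 (edgeR adjusted p = 4.72e-06). The lowest LPS library was above the highest IL-10 library. mir-7b differed by 1.29 and mir-7a-1 by 1.00, and because their mature strands are almost identical, reads of 1 may have been counted for another. Of the 4 miR-29 precursors, known to repress collagen genes, 3 were called higher after LPS, against 20.5% over all tested precursors. The median of the 4 was 0.79. mir-29b-2 (log2 1.39 ± 0.24) and mir-29b-1 (1.19 ± 0.21) differed most. These 2 copies share the mature 3p strand, so that reads of 1 may have been counted for the other. mir-29a was just called (0.38, edgeR adjusted p = 0.0429), and it was not called with library totals (0.17, edgeR adjusted p = 0.44) or without any 1 of the 6 libraries other than LPS library 2, while mir-29c, at 0.39, was not called.

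The miR-17-92 cluster and its paralogs, which promote growth in many cell types, differed unevenly. Of 12 tested members 5 were higher after LPS and 7 were not called, where 20.5% of all tested precursors were higher and 44.4% were called. The median was 0.41, against 0.00 over all, and without LPS library 2 the higher members numbered 3. mir-92a-2 stood at 2799, 2849 and 2532 normalised CPM after LPS, at 1119, 888 and 1084 after IL-10 and at 1972, 2037 and 1980 in controls. On this scale the controls lay between the treatments, above every IL-10 library and below every LPS library. The difference between the treatments was 2.64-fold (log2 1.40 ± 0.13, edgeR adjusted p = 1.81e-08), and mir-92a-1, the copy on chromosome 14, differed by 1.35. Against control mir-92a-1 was at -0.91 after IL-10, called, and at 0.44 after LPS, a call that ended with library totals (0.02).

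mir-17 (log2 0.62), mir-106b (0.62) and mir-106a (0.61) were the other members called higher after LPS, and with library totals these 3 were no longer called (0.41, 0.42 and 0.40). mir-106b was not called without LPS library 2 either (0.46). On chromosome 14 mir-17 and mir-92a-1 were called out of 6 tested precursors of the cluster, whose log2 differences ran from 0.30 to 1.35. mir-18a, mir-19a, mir-20a and mir-19b-1, between them in the same transcript, were not called. Outside the clusters the seed of miR-92a recurs in mir-32 and mir-92b. mir-32 stood at 113, 50.8 and 109 normalised CPM after LPS and at 35.6, 46.6 and 27.4 after IL-10 (log2 1.35 ± 0.39, edgeR adjusted p = 0.00947). mir-92b differed by 0.96 ± 0.21 (edgeR adjusted p = 0.001), while mir-25, the most abundant precursor with this seed, differed by 0.09 with a 95% interval from -0.19 to 0.37.

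Some of the largest ratios came from precursors with few counts after IL-10. mir-1961 had 94 counts over the 3 LPS libraries and 3 over the 3 IL-10 libraries, a ratio of depth-scaled counts of 52.2 with a 95% counting interval from 17.3 to 258. mir-6538 had 97 and 6 counts, and mir-7033 had 120 and 10. In normalised CPM mir-7033 stood at 128, 235 and 316 after LPS and at 8.21, 20.0 and 2.74 after IL-10. These 3 precursors passed the filter on low counts through the LPS libraries, so that a difference was built into their being tested. mir-155 reached the minimum level of that filter in the 3 LPS libraries and in 1 IL-10 library, so that it too was tested because of its level after LPS. Their counting intervals leave out the spread between libraries and are too narrow for a difference between treatments.

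Precursors listed as overlapping rRNA, tRNA or snoRNA were higher after LPS in 9 of 10 tested cases, against 20.5% over all tested precursors. The median log2 difference of the 10 was 0.90. mir-6240 stood at 4493, 6168 and 5934 normalised CPM after LPS and at 1007, 1168 and 1034 after IL-10 (log2 2.37 ± 0.15, edgeR adjusted p = 5.2e-12). mir-1983 differed by 1.83, mir-6236 by 1.47, mir-2137 by 1.47 and mir-664 by 1.09, and mir-3968 was not called. With library totals 5 of the 10 were called. Together the 11 listed precursors took 4.56 ± 0.629% of the counts after LPS and 2.05 ± 0.119% after IL-10 (SD, n = 3 each), and 2.80% in controls. The 3 LPS shares lay above the 3 IL-10 shares, which gives an exact two-sided permutation p of 0.1, the smallest that 3 against 3 libraries allow.

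The most abundant precursor, mir-5099, took 21.2 ± 1.66% of the counts after LPS and 9.64 ± 1.42% after IL-10 (exact permutation p = 0.1), with 12.7 ± 1.53% in controls. In normalised CPM it was 2.52-fold higher after LPS (log2 1.33 ± 0.16, edgeR adjusted p = 4.89e-07), and mir-3535 was 2.64-fold higher (log2 1.40 ± 0.14). mir-6238 was higher too, at 860, 1123 and 1508 normalised CPM after LPS and 287, 286 and 302 after IL-10. Because shares add up to the whole library, a rise in the share of 1 precursor lowers the shares of the others. With the structural RNA precursors and mir-5099 left out before scaling, 42 of 247 precursors were higher and 65 lower.

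On the IL-10 side the largest difference belonged to mir-511, an intronic precursor of Mrc1, the mannose receptor gene of alternatively activated macrophages. It stood at 129, 143 and 121 normalised CPM after IL-10, at 5.12, 25.4 and 32.7 after LPS and at 57.6, 96.0 and 57.4 in controls. The 3 groups did not overlap, with IL-10 highest and LPS lowest. The level after IL-10 was 6.24-fold that after LPS (log2 -2.64 ± 0.42, edgeR adjusted p = 2.73e-05). Against control mir-511 was called lower after LPS (-1.78), and its value of 0.87 after IL-10 was not called (edgeR adjusted p = 0.0613). The 3 LPS libraries held 11 counts of it in all, so its level there is poorly determined.

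mir-223, which restrains inflammatory activation of myeloid cells, was lower after LPS as well. It stood at 169, 146 and 136 normalised CPM after LPS and at 244, 210 and 302 after IL-10, without overlap (log2 -0.74 ± 0.24, edgeR adjusted p = 0.0199). It was not called without LPS library 3 (-0.66) or without IL-10 library 3 (-0.60). Of 7 tested precursors linked with alternative activation, 4 were lower after LPS (mir-511, mir-223 and the 2 let-7c copies) and 3 were higher, where 23.9% of all tested precursors were lower and 20.5% higher. The median was -0.39, and the 2 let-7c copies had nearly equal counts, so that they are in effect 1 measurement. Without LPS library 3 only 1 was lower, and without LPS library 1 or IL-10 library 2 the lower members numbered 2. The higher members were mir-146a, mir-222 and mir-34a (log2 0.57), of which mir-146a belongs to the NF-kB list too, and mir-34a was not called with library totals (0.37) or without LPS library 2, IL-10 library 1 or IL-10 library 3. mir-142a, a precursor of blood-forming cells in general, was not called (log2 -0.11, 95% interval -0.44 to 0.22).

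**Figure D3:**
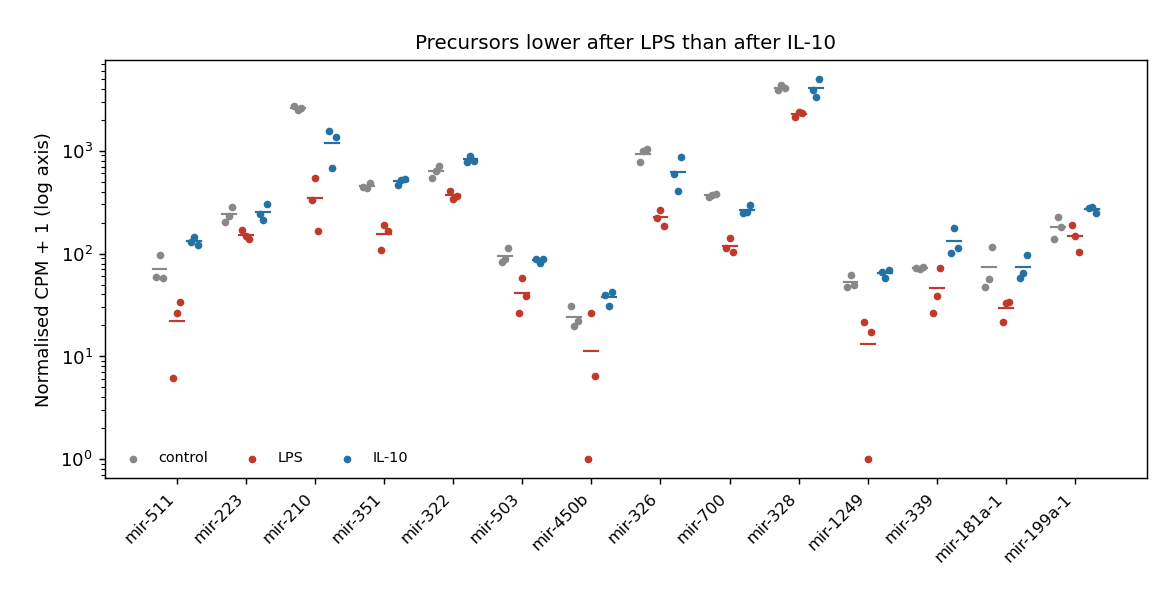
Normalised CPM plus 1 (y axis, log scale) of 14 precursors lower after LPS than after IL-10, in each control, LPS and IL-10 cell library, with a bar at the group mean. The LPS points of mir-511, mir-351, mir-326 and mir-700 lie below all IL-10 and control points, and a point at 1 stands for a count of 0.

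mir-322, mir-503, mir-351 and mir-450b, neighbours within 10 kb on chromosome X, were all lower after LPS, where 23.9% of all tested precursors were. mir-322 is the mouse form of human miR-424, and with mir-503 it represses cell cycle genes. mir-351 stood at 108, 190 and 163 normalised CPM after LPS and at 465, 522 and 524 after IL-10, with 447, 433 and 484 in controls. The LPS libraries lay far below the others, and the IL-10 libraries near the controls. The difference was log2 -1.73 ± 0.18 (edgeR adjusted p = 4.94e-08), which made it the lower precursor with the smallest p.

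mir-322 stood at 404, 336 and 359 normalised CPM after LPS and at 780, 885 and 793 after IL-10 (log2 -1.15 ± 0.15, edgeR adjusted p = 1.35e-06). Here too the treatments did not overlap. mir-503 differed by -1.11 ± 0.37 and mir-450b by -1.93 ± 0.69 (edgeR adjusted p = 0.0234 and 0.0294). Both rest on few counts, mir-450b on 5 after LPS and 38 after IL-10. Neither was called without LPS library 1 or without LPS library 3, nor mir-450b without IL-10 library 1 or 3. mir-450b reached the minimum level of the filter on low counts in 2 IL-10 libraries, 1 control library and no LPS library. A lower level after LPS was thus built into its being tested. Against control mir-351 was at -1.58 after LPS, called, and at 0.15 after IL-10, not called, which was -0.07 with library totals. For mir-322 the values were -0.77, called, and 0.38, not called.

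The relatives of these precursors by seed were not called. mir-322 shares its seed with mir-15a, mir-15b, mir-16-1 and mir-16-2, and none of those 4 was called by edgeR (log2 -0.05, 0.35, 0.05 and 0.13) or by the Wald test of DESeq2, with 1 at an unadjusted p under 0.05. mir-351 shares its seed with mir-125b-1 and mir-125b-2, which stood at -0.74 and -0.67 on 12 summed counts each after LPS and were not called. The differences between mir-322 or mir-351 and these relatives were not tested.

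Other precursors lower after LPS came from several places. mir-210, which hypoxia induces, stood at 333, 539 and 163 normalised CPM after LPS, at 1560, 675 and 1341 after IL-10 and at 2721, 2503 and 2582 in controls. All 6 treated libraries lay below the controls, and the LPS libraries lay below the IL-10 libraries. The difference between the treatments was log2 -1.81 ± 0.33 (edgeR adjusted p = 0.000147), and against control it was -2.93 for LPS and -1.12 for IL-10, both called. mir-210 also spread widely among the libraries of each treatment, and less so among the controls.

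mir-326 stood at 220, 267 and 185 normalised CPM after LPS and at 594, 406 and 870 after IL-10 (log2 -1.49 ± 0.23, edgeR adjusted p = 1.84e-05). mir-700 differed by -1.17 ± 0.20 and mir-328, a more abundant precursor at 2129 to 2399 normalised CPM after LPS and 3354 to 4984 after IL-10, by -0.84 ± 0.16. None of these 3 overlapped between the treatments. mir-339 differed by -1.51 ± 0.36 and mir-1249 by -2.26 ± 0.53, the latter on 7 counts after LPS and 66 after IL-10. mir-181a-2 (-1.54) and mir-181a-1 (-1.36), whose product tunes receptor signalling in lymphocytes, were lower as well. They share a mature strand and rest on few counts, and neither was called without LPS library 1 or without IL-10 library 3, nor mir-181a-1 without LPS library 2 or 3.

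The let-7 family, which restrains proliferation in many cell types, showed small differences in very abundant precursors. let-7a-1 stood at 111617, 104468 and 105894 normalised CPM after LPS and at 125732, 160769 and 134317 after IL-10, with 90793, 107258 and 103202 in controls. The IL-10 libraries lay above all LPS and control libraries, and LPS and control overlapped. The difference was log2 -0.39 ± 0.13 (edgeR adjusted p = 0.0258). Of 13 tested members 8 were lower after LPS and 5 were not called, where 23.9% of all tested precursors were lower. The median of the 13 was -0.35. let-7g stood at 0.20, let-7i at -0.14 and mir-98 at -0.17 among those not called.

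The let-7 calls lay close to the threshold. Without LPS library 3, and likewise without IL-10 library 2, edgeR called 0 of the 13 at an adjusted p under 0.05, where 9 had an unadjusted p under 0.05 with all libraries. With library totals 11 were called lower, and by the Wald test of DESeq2 9 were. As a share of all counts the 13 precursors took 38.9 ± 1.14% after LPS and 57.3 ± 2.29% after IL-10 (SD, n = 3 each; exact permutation p = 0.1), and 49.6 ± 1.27% in controls. The 2 copies of let-7a had nearly equal counts in each of the 6 libraries, as did those of let-7c and of let-7f. Each pair is in effect 1 measurement, and all 3 pairs are among the 8 lower members.

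The miR-23/27/24 precursors lie in 2 clusters, on chromosomes 8 and 13, and all 6 were lower after LPS, where 23.9% of all tested precursors were. The call of mir-27a (-0.40) was lost without LPS library 1 or 3, IL-10 library 1 or 3, control library 3 or TGF-β library 1. mir-24-1 stood at 13038, 12641 and 12871 normalised CPM after LPS and at 18004, 20120 and 16841 after IL-10 (log2 -0.51 ± 0.13, edgeR adjusted p = 0.00401). mir-27b, which represses the lipid regulator Pparg, stood at 681, 654 and 691 after LPS and at 985, 975 and 974 after IL-10 (log2 -0.53 ± 0.15). In both cases the treatments were apart with little spread. The median of the 6 was -0.49, and mir-24-1 and mir-24-2, which share the mature 3p strand and differ in the 5p strand, had nearly equal counts. The miR-30 family had 6 tested members, of which edgeR and DESeq2 called 0 and 0 had an unadjusted p under 0.05, with a median of 0.09.

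**Figure D4:**
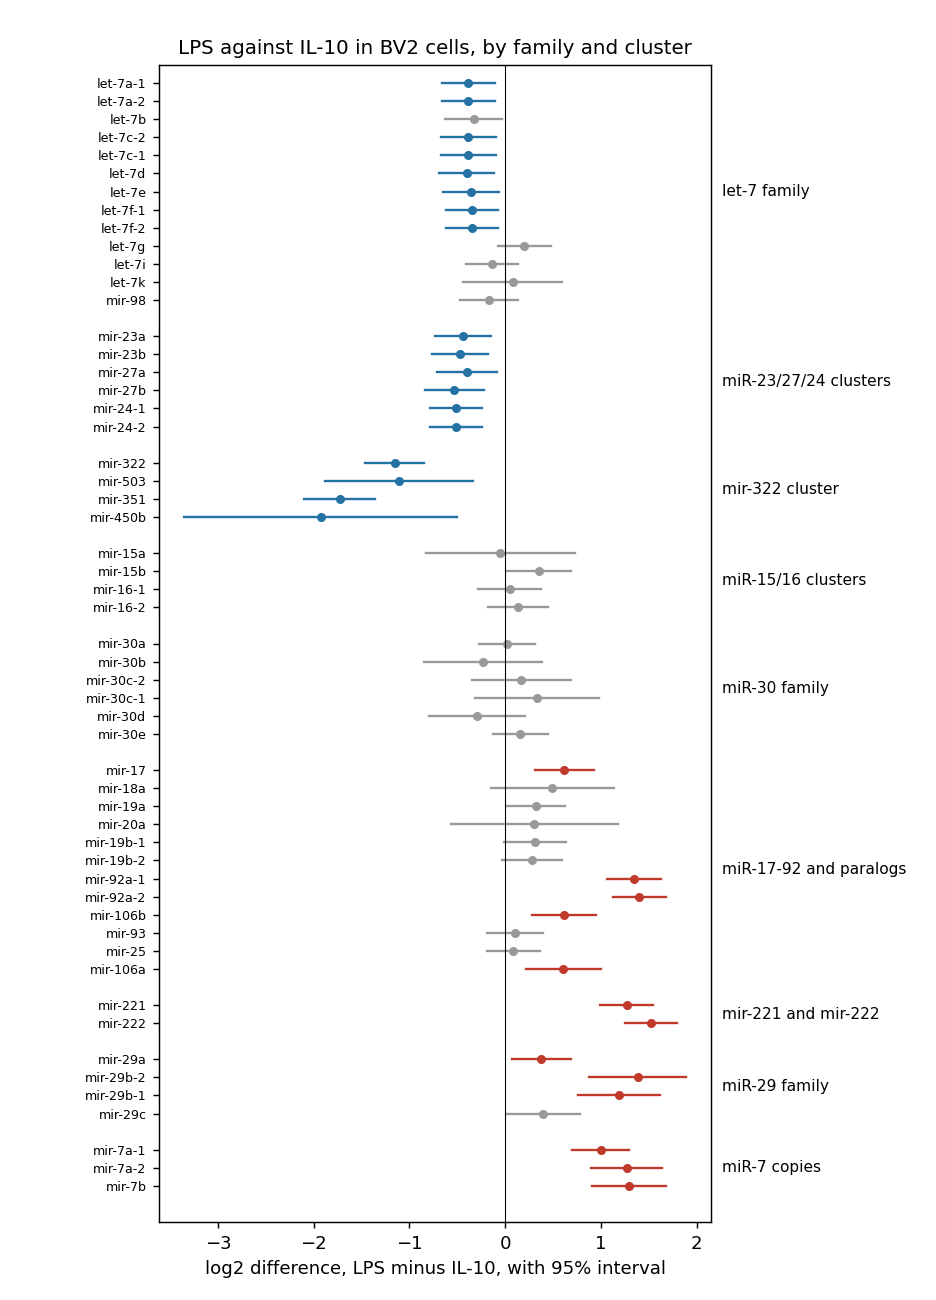
Log2 difference between LPS and IL-10 cells (x axis, above 0 means higher after LPS) with its 95% interval for the tested members of 9 families and clusters, each line 1 precursor, red where called higher, blue where called lower and grey where not called. The 4 members of the mir-322 cluster and the 6 of the miR-23/27/24 clusters are all blue, the miR-7 and mir-221 and mir-222 members all red, and the miR-15/16 and miR-30 members all grey. mir-450b, in the mir-322 cluster, was tested because of its level in IL-10 and control libraries.

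Across the 259 precursors 28 seeds were shared by at least 2 names. The let-7 seed was the one with calls in both directions, 8 lower let-7 precursors and mir-1961, which was tested because of its level after LPS. Among 22 groups of precursors within 10 kb of each other in RefSeq GRCm38.p6, the Sfmbt2 cluster on chromosome 2 held calls in both directions. That cluster is a large intronic array found in rodents, and of its 65 tested precursors 16 were lower after LPS and 1 was higher. The list of its families by name held 67 tested members, with the same 16 lower and 1 higher and a median of -0.01. The share lower was that found over all tested precursors (23.9%). Leaving out 1 LPS or IL-10 library left 9 to 12 lower members. The 16 were the 10 mir-467a copies, mir-467b, mir-466n, mir-297b, mir-297c, mir-297a-3 and mir-297a-4, so that few distinct sequences make up the count. On chromosome X mir-532 (log2 -0.52), mir-501 (-0.72) and mir-500 (-0.73) were lower, and their neighbours mir-362 and mir-188 were not called. mir-501 and mir-500 were not called without LPS library 1 or without IL-10 library 2, nor mir-500 without LPS library 2 or IL-10 library 3.

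The labelled cell type was checked against marker precursors. The myeloid markers mir-223, mir-142a, mir-342 and mir-511 had counts in both treatments. In that order they had 81, 1739, 100 and 11 counts over the LPS libraries and 262, 3556, 169 and 134 over the IL-10 libraries. The 11 listed myeloid precursors summed to 54968 to 60092 CPM per LPS library and 16678 to 20453 per IL-10 library. Among them mir-146a had 26113 counts after LPS and 1589 after IL-10, so the higher LPS sums largely reflect mir-146a. mir-155, mir-21a and mir-191 were also among the 11. Of 9 tested myeloid members 2 were higher, 3 lower and 4 not called, shares near the 20.5% higher and 23.9% lower over all tested precursors.

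Markers of other cell types were scarce. The 16 listed for neurons and glia summed to 233 to 324 CPM after LPS, with 4 at 0, and to 132 to 226 after IL-10, with 8 at 0. Of their 3 tested members the 2 mir-128 copies were called higher after LPS (log2 0.80 and 0.87), and neither was called with library totals or without LPS library 1 or 2 or IL-10 library 1 or 2. The 15 listed for fibroblasts, muscle and endothelium summed to 392 to 573 CPM after LPS and to 861 to 934 after IL-10, with 7 at 0 in each treatment. The mir-199 precursors made up the 3 calls there, all lower after LPS, such as mir-199a-1 at -0.87 ± 0.25. Without LPS library 3 none of the 3 was called (mir-199a-1 -0.65, edgeR adjusted p = 0.064). They share the mature 3p strand and had nearly equal counts (75 to 80 after LPS, 259 to 281 after IL-10). The 3 are thus in effect 1 measurement. The 13 for epithelium, liver and red cells summed to 75.5 to 107 CPM after LPS and to 28.4 to 62.9 after IL-10. The part of other cells in the results above was not tested.

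The same contrast was available in extracellular vesicles (EVs) after the same treatments, in 3 LPS and 3 IL-10 libraries of 15402 to 28727 counts. There 17 of 71 tested precursors were called (23.9%), 4 higher (5.63%) and 13 lower (18.3%). With library totals the balance turned to 13 higher and 2 lower, as that scaling moved the median to 1.06, and by the Wald test of DESeq2 9 were higher and 16 lower. Leaving out 1 of the 6 libraries moved the count to between 1 and 17. The lowest counts came without LPS library 2 (1), without LPS library 3 (4) and without IL-10 library 2 (5). mir-320, far higher after LPS in cells, stood at 908, 1863 and 1683 normalised CPM in LPS EVs and at 78.8, 195 and 121 in IL-10 EVs (log2 3.53 ± 0.97, edgeR adjusted p = 0.0192). The vesicle groups did not overlap, but the IL-10 values rest on 5 counts in all, and mir-320 passed the filter on low counts through the LPS EVs, the only group to reach its minimum level. It was not called without any 1 of the 6 libraries other than LPS library 1 (log2 3.20 to 3.95, edgeR adjusted p = 0.0712 to 0.115). mir-146a, by contrast, stood at 397, 1979 and 1522 in LPS EVs and at 39.4, 2344 and 1932 in IL-10 EVs. These ranges overlapped, and the log2 difference was -0.09 with a 95% interval from -2.82 to 2.64.

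Whether the LPS against IL-10 difference was unlike in EVs and cells was tested in 1 fit over the 24 libraries. No EV library could be matched to a cell library, so the fit took all libraries as independent. Of 280 precursors 23 were called (8.21%), and mir-6240 and mir-5126 had the smallest p. mir-146a was called too, at a log2 of -4.31 ± 1.06 for EVs minus cells (edgeR adjusted p = 0.0118). IL-10 EV library 1 held 1 count of mir-146a. mir-6240, higher after LPS in cells, stood at 28830, 17980 and 21578 normalised CPM in LPS EVs and at 43830, 129889 and 187140 in IL-10 EVs. In counts it had 1016, 936 and 1205 of 23943, 28727 and 25867, against 1112, 1330 and 1550 of 17724, 15402 and 15592. mir-6236 took 15673, 16150 and 12909 counts of these LPS EV libraries and 10846, 12247 and 12199 of the IL-10 EV libraries. Its normalised CPM reached 1472850 in IL-10 EV library 3, so that EV levels on this scale are not shares of a library. For mir-6240 the order of the treatments was opposite in the 2 compartments. Its difference of differences was log2 -4.33 ± 0.49 (edgeR adjusted p = 1.01e-06). The call of mir-6240 in EVs alone was lost without LPS EV library 2 (-2.19, edgeR adjusted p = 0.0636) or 3 (-2.22, edgeR adjusted p = 0.0565). mir-5126, lower after LPS in cells at 3264, 4207 and 3403 against 4513, 8055 and 5456 normalised CPM, was higher in LPS EVs. Its difference of differences was 4.95 ± 0.75 (edgeR adjusted p = 7.94e-05). The level of mir-5126 in IL-10 EVs rested on 15, 0 and 4 counts. Its call in EVs alone was lost without LPS EV library 2 (edgeR adjusted p = 0.0636).

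**Figure D5:**
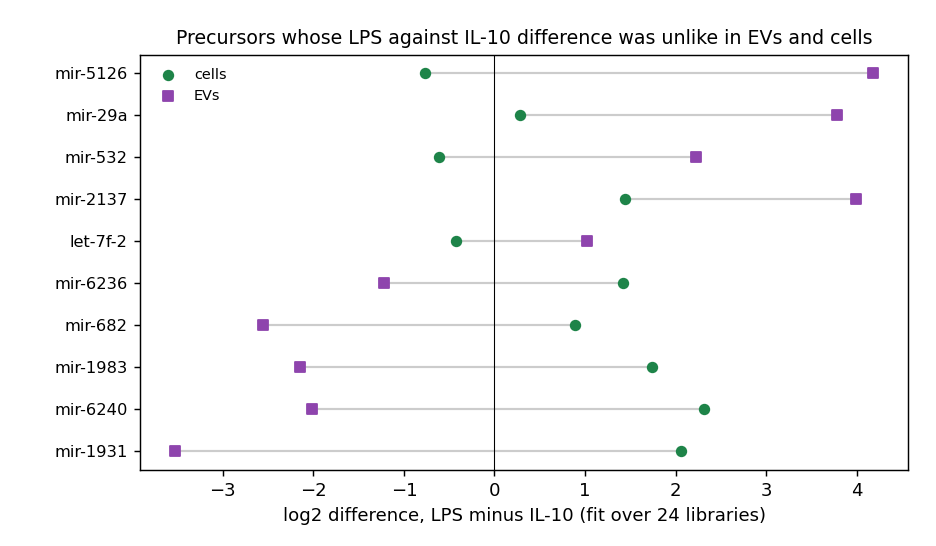
Log2 difference between LPS and IL-10 (x axis) in cells (green circles) and in EVs (purple squares) from the fit over 24 libraries, for the 5 precursors with the smallest p in each direction of the EV minus cell difference. For 8 of the 10 the joined EV and cell points lie on opposite sides of 0, and for mir-2137 and mir-29a both lie above 0.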

How the data were processed

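Small RNA libraries were made from cells and from EVs by the SMARTer smRNA-seq method with 18 cycles of PCR, per the labels' protocols, and read over 150 bases. The values the authors deposited are whole counts of reads per microRNA precursor, not normalised. DESeq2 is named, with no version, per the submitters' processing notes. What aligner, annotation, genome build and strand setting they used is not given in the sources used here. Labels name each sample's treatment, and the table columns were matched to treatments by their headers, with the shared control columns used once.

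Differences were fitted in R 4.3.3 by the two-sided quasi-likelihood F test of edgeR 4.0.16 (with limma 3.58.1), after TMM scaling and a filterByExpr minimum count of 10. The 12 cell libraries formed 1 fit (8 residual degrees of freedom), with the contrast LPS minus IL-10. The EV fit used the 12 EV libraries, and the difference between compartments was tested over all 24 (16 residual degrees of freedom). P-values were adjusted by Benjamini-Hochberg over every precursor tested in a comparison, and the SE comes from the F statistic. Shares of counts were compared by exact permutation. The procedure was tested on simulated data.

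The precursors and lists described were chosen with earlier results of these data known. Named precursors were the top 15 by p on each side among calls without overlap, a set of precursors known from microglia, up to 4 members of each list, the 10 most abundant, and for EVs and the compartment difference the top 5 by p on each side. A few neighbours, relatives by seed and overlapping calls were named after their values were seen. Alternatives were DESeq2's size factors, library totals, no filter, a stricter filter (mean of 50 counts), DESeq2 1.42.0 with its Wald test, a robust prior, only the groups compared, the structural RNA precursors and mir-5099 left out, 1 copy per numbered set, a replicate block and each library left out in turn. Leaving out control and TGF-β libraries was added after seeing the data. Low counts limit precision: the 95% interval of a log2 difference had a median width of 0.62 above a level of 390 CPM and 1.25 below it. Mature sequences and neighbours come from RefSeq GRCm38.p6, and no coordinates are given because the build of the counts is not known.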

Additional observations from a re-analysis of the deposited data

Results flagged for a closer look

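The difference between LPS and IL-10 was itself unlike in EVs and cells for the 10 precursors below, by edgeR's test of that difference over the 24 libraries. Each value is the log2 difference in EVs minus that in cells. It was -4.33 for mir-6240, -2.64 for mir-6236, -3.44 for mir-682, -5.58 for mir-1931 and -3.89 for mir-1983, all relatively lower in LPS EVs. It was 4.95 for mir-5126, 2.55 for mir-2137, 1.45 for let-7f-2, 3.50 for mir-29a and 2.85 for mir-532, all relatively higher in LPS EVs. mir-1931 was tested in EVs but had too few counts to be tested in cells alone, and mir-532 had too few in EVs alone. mir-1931 had 2, 5 and 1 counts in the LPS EV libraries, and mir-29a had 0, 1 and 1 in the IL-10 EV libraries. Their values are thus poorly determined. With DESeq2's size factors let-7f-2 (0.62), mir-29a (2.82) and mir-532 (2.16) were not called. Without IL-10 EV library 1 mir-1983 stood at -0.73 and was not called, and let-7f-2, mir-29a and mir-532 each lost the call without several single libraries.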

How the results depend on the processing

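With library totals 35 precursors were higher after LPS in cells (53 with TMM factors), and with DESeq2's size factors 54. Leaving out 1 LPS or IL-10 library gave 39 to 53 higher and 34 to 52 lower precursors, and leaving out 1 control or TGF-β library 53 to 58 and 53 to 64. No call in cells changed direction under any alternative run. Reversals among precursors not called were mir-21a (-0.083), mir-342 (-0.016), mir-16-2 (-0.079), mir-16-1 (-0.16) and mir-30e (-0.037) with library totals, and mir-16-1 with no filter (-0.051) and with only the groups compared (-0.011). With single libraries left out mir-15a ran from -0.47 to 0.30, mir-30c-1 from -0.030 to 0.91 and mir-16-1 from -0.054 to 0.14. Header numbers did not pair the libraries (correlation of deviations 0.12, -0.06 and -0.12), and the replicate block gave 52 higher and 59 lower. In EVs 17 calls became 11 with no filter, 10 at a mean of 50 counts, 15 with library totals (13 higher, 2 lower), 18 with DESeq2's size factors, 25 by the Wald test (9 higher, 16 lower) and 1 to 17 with a library left out. The 23 calls on the difference between compartments became 30 with DESeq2's size factors, 48 with library totals, 36 with no filter, 50 by the Wald test and 11 to 25 with a library left out. Of these 23, mir-6546 (-6.01) turned to 3.90, not called, without IL-10 EV library 1. The cause of these shifts was not tested. Depth limits what precursors below 390 CPM can show.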
